A study of Mus musculus with 12 samples.

Results

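Notch1, Notch2 and Notch3 (receptors), Jag1, Jag2 and Dll1 (ligands), Lfng (a modifier of the receptors) and Hes1, Hey1 and Nrarp (targets of the activated receptor) were followed in mouse airway organoids after femtosecond laser ablation. These 10 genes were chosen by gene name from the 55401 genes of the normalized count table, and each name matched 1 gene. All 10 reached the minimum for testing (10 normalized counts in 6 or more libraries) and were tested among 13792 genes.

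Notch receptors are single-pass membrane proteins that are bound by Jagged or Delta-like ligands on a neighboring cell. Binding leads to cleavage of the receptor by an ADAM protease and then by gamma-secretase, and the freed intracellular domain joins the DNA-binding protein RBPJ and a Mastermind coactivator in the nucleus, where it turns on genes of the HES and HEY families. In the airway epithelium this pathway is known for its part in basal cell fate, in which Notch activity favors secretory over multiciliated cells.

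The study asked how transcription changes during repair after a defined injury. Organoids were grown from airway epithelial cells isolated from lungs of adult C57BL/6J mice. They were kept in basement membrane extract with medium conditioned by L-WRN cells, which secrete Wnt3a, R-spondin 3 and noggin. Each of the 12 libraries was made from a dish of 45 organoids, and cells of both groups carried a lentiviral H2A-mCherry reporter driven by a p63 promoter. In the 6 ablation dishes 10 adjacent cells of every organoid were destroyed by the laser, no cell was destroyed in the 6 control dishes, and both were kept in unsupplemented imaging medium and harvested 4.5 h after treatment. Dishes of a number (1, 3, 4, 5, 6 and 7) came from the same culture, with the same passage and culture day, and form 6 pairs. Pairs 1 and 3 were at passage P2+14, pairs 4 and 5 at P2+15 and pairs 6 and 7 at P2+16. By the dates and culture days in their titles, the pairs of a passage go back to the same start day. The 6 cultures may therefore not be independent. The number of mice behind the cultures is not given in the sources used here, so p-values measure the spread between these dishes and cultures.

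Pairs 1, 3 and 5 form library set 1 and pairs 4, 6 and 7 library set 2. The sets were read from the runs of library numbers, because the study's methods name a batch without saying what it was. The titles of controls 4, 6 and 7 hold the word ablation while their treatment label reads control, and they were used as controls. Whole reads could be recovered for 9 libraries and summed to between 23631212 (control 7) and 29775699 (control 5). The basal cell markers Krt5, Krt14 and Trp63 were abundant. Of 10 secretory markers 8 reached the minimum. Control means were 50895 normalized counts for Cyp2f2 and 2905 for Aldh1a1. The keratins Krt8, Krt4 and Krt13 of this list had 24986, 9624 and 29829. Those of Scgb3a1, Muc5b and Scgb3a2 were only 93.0, 15.1 and 14.3. Scgb1a1 with 3.97 and Bpifa1 with 3.69 did not reach the minimum. Of 10 multiciliated markers 4 reached the minimum, with control means of 13397 for Tubb4b, 218 for Myb, 26.0 for Tppp3 and 13.4 for Cfap43. Foxj1, with means of 11.9 in the control and 7.81 after ablation, had 10 counts in too few libraries. Control means were 5.87 for Ccno, 3.56 for Dnah5, 0.815 for Mcidas and 0 for Gmnc and Deup1. The summed level of 5 endothelial markers, a cell type that also uses Jagged and Delta-like ligands, was 7.05 to 20.5 in the control and 8.89 to 26.3 after ablation, and none of the 5 reached the count minimum. The sum of 7 fibroblast and mural markers was at most 48.3 in any dish, and 1 of the 7 reached the minimum.

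Per kb of exon, the level order in the 12 dishes was led by Hes1, with a mean of 2023 normalized counts per kb, above 95.4% of the genes tested. Jag1 followed with 1424 normalized counts per kb, then the feedback inhibitor Nrarp with 875, Jag2 with 782, Dll1 with 441 and Notch1 with 382. Notch2 had 239, Notch3 234, Lfng 192 and Hey1 181 normalized counts per kb, and Hey1 was above 51.7% of the genes tested. The ranges of neighbors in this order did not overlap between Jag2 and Dll1 or between Notch1 and Notch2, and overlapped in the other cases. Within dishes, Hes1 was above Jag1 in 12 of 12 and Dll1 above Notch1 in 9 of 12, whereas Lfng was above Hey1 in only 6 of 12. The plot of levels per kb shows these steps.

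**Figure D1:**
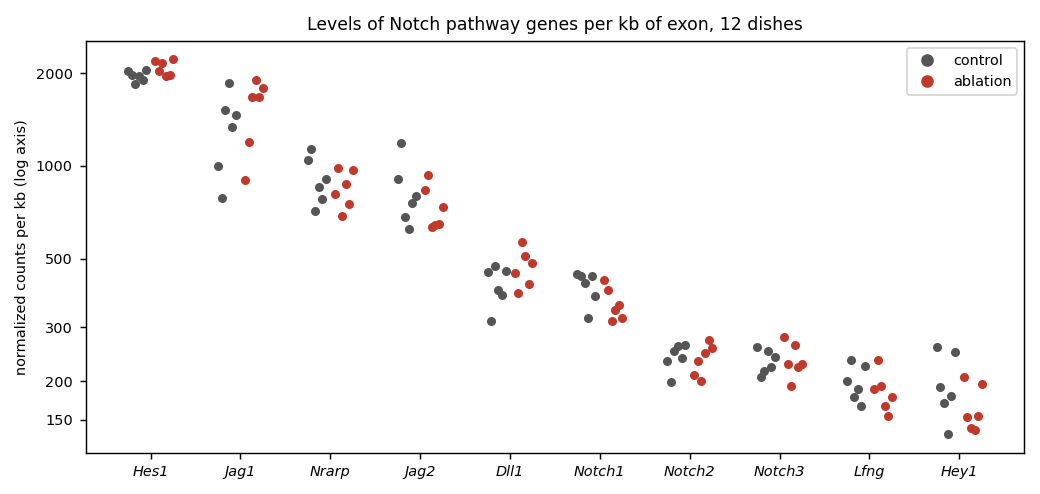
Normalized counts per kb of exon (log axis) of the 10 genes in each dish, with control dishes in gray and ablation dishes in red. Hes1 and Jag1 lie at the top, the points of Jag2 stand clear of those of Dll1, and Notch2, Notch3, Lfng and Hey1 share the lowest range.

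Most receptors, ligands and HES or HEY genes outside this group were scarce. Notch4 had a control mean of 16.0 and Dll4 of 11.3 normalized counts. Hes3 and Hes5 were at 0 in every dish, and Heyl and Hey2 had control means of 5.22 and 1.34. The exceptions were Dlk2, a Delta-like protein, with a control mean of 742 normalized counts and 673 after ablation, and Hes6, with 393 and 416.

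A regulatory sequence is shown for Lfng, since the RBPJ recognition letters GTGGGAA (or TTCCCAC on the other strand) were searched in the promoter windows of the group. RefSeq windows of GRCm38.p6, from 250 bases before to 50 after a start site, were at hand for 8 of the 10 genes in 9 windows, with none for Hes1 and Hey1. The letters were found in the window of 1 gene, Lfng, with the match starting 109 bases before the start site, and in 6.38% of all 32851 windows. The match is a description of these letters and was not measured as a binding site. The window lies at chr5:140607091-140607390 on the plus strand, with the match in capitals.
Lfng: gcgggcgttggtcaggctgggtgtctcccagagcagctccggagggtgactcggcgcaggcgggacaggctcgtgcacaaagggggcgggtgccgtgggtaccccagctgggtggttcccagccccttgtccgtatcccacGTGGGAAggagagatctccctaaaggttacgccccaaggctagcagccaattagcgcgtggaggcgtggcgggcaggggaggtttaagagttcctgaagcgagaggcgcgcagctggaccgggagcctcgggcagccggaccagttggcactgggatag

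None of the 10 genes passed the threshold of 0.05 for the adjusted p-value between ablation and control in limma, either with the library set as a term or with the pair as a block. The share of all genes called was 0% in the first model and 1.09% (150 genes) in the second. The 150 calls went to 0 with the same block and plain eBayes, without trended and robust moderation, an alternative added after the data were seen. Values of the groups overlapped in all 10 genes, while 0.457% of all genes had groups that did not. Within pairs, 4 genes (Notch1, Jag2, Lfng and Hey1) were lower after ablation in at least 5 of 6 pairs, as were 18.4% of all genes, and 3 genes (Jag1, Dll1 and Hes1) were higher in at least 5 of 6, as were 17.9% of all genes. In bulk RNA, fewer cells of a type and less RNA per cell cannot be told apart. The median log2 fold change of the 10 genes was -0.061, beside -0.0036 over all genes tested.

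**Figure D2:**
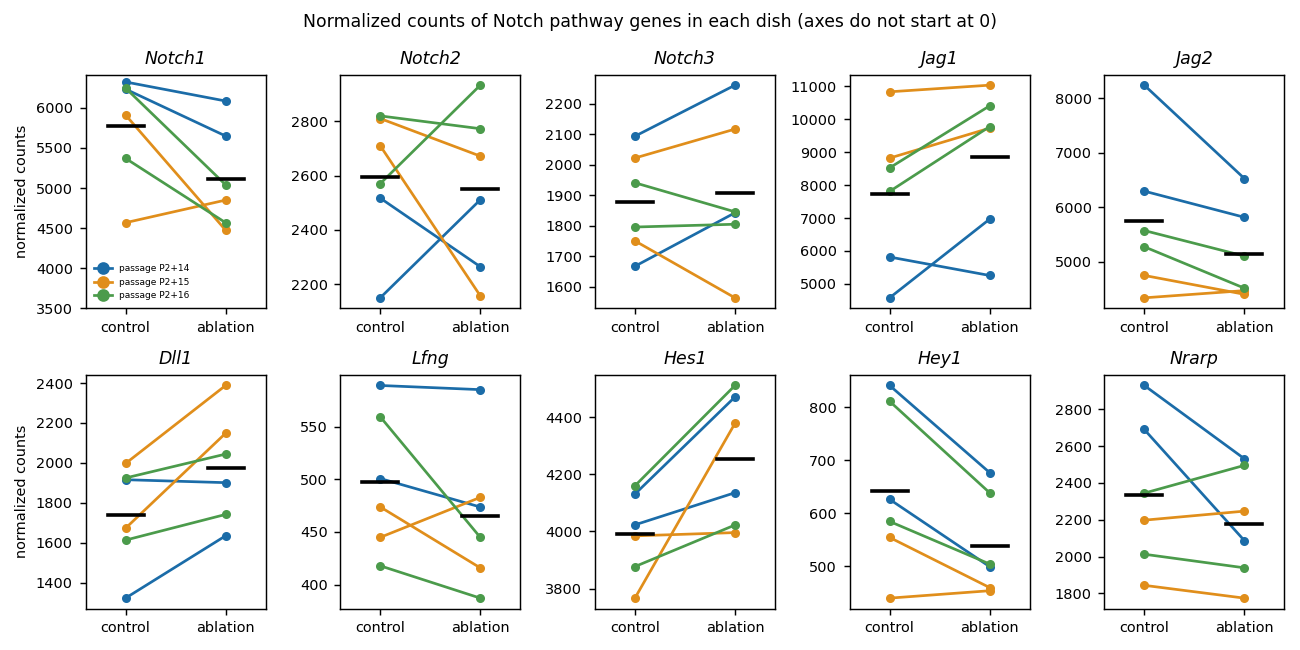
Normalized counts of the 10 genes in control and ablation dishes, with a line for each pair, colors for passages and black bars for group means; the axes do not start at 0. Hes1 is the gene in which all 6 lines go up, and in Hey1 and Notch1 5 of 6 lines go down.

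Among the receptors, Notch1 (ENSMUSG00000026923.15, chr2:26457903-26516663, minus strand of GRCm38) was the most abundant per kb. Its control dishes had 4568 to 6321 normalized counts with a median of 6071, and ablation dishes had 4475 to 6084 with a median of 4945. Ablation was lower in 5 of 6 pairs, and pair 5 was the exception. The log2 fold change was -0.18, with a 95% interval of -0.37 to 0.023 and an adjusted p of 0.674 in limma. With the pair as a block the interval was -0.30 to -0.055 and the adjusted p 0.139.

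The fitted response of Notch1 was more negative in library set 2 than in set 1. Set and passage are partly joined, with both P2+14 pairs in set 1 and both P2+16 pairs in set 2. The log2 difference of Notch1 between ablation and control was -0.037 in set 1 and -0.31 in set 2. In set 2, the paired limma fit of those 3 pairs alone gave an adjusted p of 0.0329. The difference of the responses was -0.28 with an SE of 0.081, an unadjusted p of 0.00459 and an adjusted p of 0.443 in limma, so the sets were not shown to differ. Of the 10 genes none passed this test, beside 0.00725% of all genes, and 2 (Notch1 and Notch3) had an unadjusted p under 0.05, beside 7.88% of all genes.

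Notch2 (ENSMUSG00000027878.11, chr3:98013527-98150361, plus strand), a receptor with broad epithelial expression, had 2150 to 2819 normalized counts in the control with a median of 2640. It had 2157 to 2932 after ablation with a median of 2591, so the ranges nearly coincided. On the log2 scale the difference was -0.027 with a 95% interval of -0.20 to 0.15. Notch3 (ENSMUSG00000038146.8, chr17:32120820-32166852, minus strand) had 1667 to 2093 in the control with a median of 1868, and 1564 to 2261 after ablation with a median of 1844. Its log2 fold change was 0.016 with a 95% interval of -0.15 to 0.18, and pairs 4 and 7 were lower where the other 4 were higher. Notch1 made up 46.1% of the per-kb sum of the 3 receptors in the control and 43.2% after ablation, and these shares ranged from 38.6% to 51.9% and from 39.8% to 46.6%.

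Of the ligands, Jag1 (ENSMUSG00000027276.7, chr2:137081456-137116644, minus strand), a ligand of the Jagged type, had the highest mean level per kb and the largest SD between cultures. Control dishes had 4575 to 10834 normalized counts with a median of 8166, and ablation dishes 5254 to 11036 with a median of 9754. Ablation was higher in 5 of 6 pairs, with pair 1 lower. With the library set as a term, the log2 fold change was 0.21 with a 95% interval of -0.22 to 0.63 and an adjusted p of 0.822 in limma. With the pair as a block the interval was 0.022 to 0.39 and the adjusted p 0.234.

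Jag2 (ENSMUSG00000002799.6, chr12:112907819-112929776, minus strand), the other Jagged ligand, had 4344 to 8235 normalized counts in the control with a median of 5427. After ablation it had 4409 to 6527 with a median of 4815. Ablation was lower in 5 of 6 pairs and pair 5 was the exception. The log2 fold change was -0.14, with a 95% interval of -0.43 to 0.14, or -0.24 to -0.045 with the pair as a block, and the adjusted p was 0.819 in the first limma model and 0.137 in the second.

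Dll1 (ENSMUSG00000014773.13, chr17:15367354-15376872, minus strand), a Delta-like ligand, had 1322 to 1997 normalized counts in the control with a median of 1794. It had 1635 to 2388 after ablation with a median of 1973. Ablation was higher in 5 of 6 pairs, with pair 1 at a log2 difference of -0.011. Its log2 fold change was 0.19 with a 95% interval of -0.041 to 0.41, or 0.076 to 0.29 with the pair as a block, and the adjusted p was 0.698 and 0.0919 in the 2 limma models.

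The modifier Lfng (ENSMUSG00000029570.5, chr5:140607320-140615545, plus strand) encodes a glycosyltransferase that changes how the receptors respond to Jagged and Delta-like ligands. It had 418 to 589 normalized counts in the control with a median of 487, and 387 to 585 after ablation with a median of 459. Lfng was lower in 5 of 6 pairs and higher in pair 4. Its log2 fold change was -0.10, with an adjusted p of 0.837 in limma and 0.446 with the pair as a block.

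Among the targets, Hes1 (ENSMUSG00000022528.8, chr16:30064384-30067796, plus strand), a transcriptional repressor, was higher after ablation in 6 of 6 pairs, as were 5.17% of all genes (4.63% were lower in 6 of 6). Control dishes had 3766 to 4159 normalized counts with a median of 4004, and ablation dishes 3996 to 4511 with a median of 4257. Ablation and control differed by 0.091 on the log2 scale with a 95% interval of -0.0094 to 0.19, and the adjusted p was 0.658 in limma and 0.235 with the pair as a block. Its spread between cultures, an SD of 0.056 on the log2 scale, was smaller than in 93.7% of the genes tested.

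Hey1 (ENSMUSG00000040289.8, chr3:8663359-8667256, minus strand), a repressor of the related HEY family, had the largest fitted change of the 10 genes. Control dishes had 440 to 841 normalized counts with a median of 606, and ablation dishes 454 to 677 with a median of 502. Ablation was lower in 5 of 6 pairs, and pair 5, whose control held the lowest value, was higher by 0.045 on the log2 scale. The log2 fold change was -0.24, with a 95% interval of -0.58 to 0.11, or -0.37 to -0.11 with the pair as a block, and the adjusted p was 0.740 and 0.0757 in the 2 limma models. Without pair 5, the pair that went the other way, the paired limma model gave -0.29 and an adjusted p of 0.0441. Hey1 did not pass when any other pair was left out, with an adjusted p of up to 0.202 in limma.

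Nrarp (ENSMUSG00000078202.3, chr2:25180758-25183339, plus strand), which encodes a feedback inhibitor that acts on the receptor's intracellular domain, had 1844 to 2930 normalized counts in the control with a median of 2271. It had 1774 to 2532 after ablation with a median of 2167, and was lower in 4 of 6 pairs. Fitted over all dishes, the log2 fold change was -0.094 with a 95% interval of -0.31 to 0.12. Fitted differences of the 3 targets were above 0 for Hes1 and below 0 for Hey1 and Nrarp, and none passed the test.

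**Figure D3:**
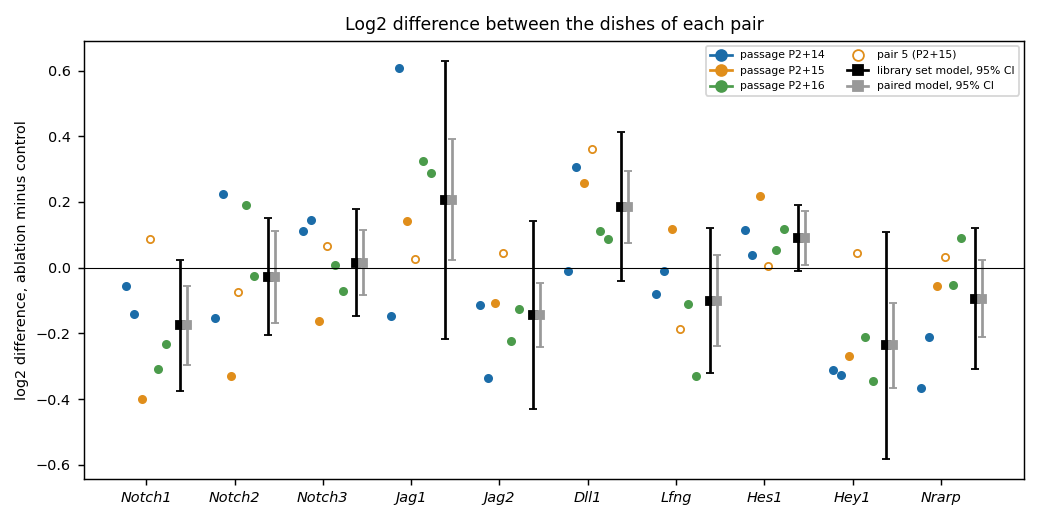
Log2 difference of ablation and control within each of the 6 pairs for the 10 genes, with colors for passages and pair 5 as open points; squares with bars are fitted differences and 95% intervals of the model with the library set (black) and the paired model (gray). Pair 5 lies above 0 in Notch1, Jag2 and Hey1, where the other 5 pairs lie below it.

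With unadjusted p-values, 0 of the 10 genes were under 0.05 in the model with the library set, beside 7.85% of all genes, and 6 of 10 (Notch1, Jag2, Dll1, Hes1, Hey1 and Jag1) in the paired model, beside 17.6% of all genes.

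The Jagged ligands stood apart in the cultures of passage P2+14, a pattern chosen after the values were seen. By their labels these cultures also share a start day. Jag1 had 4575 to 6967 normalized counts in the 4 dishes of passage P2+14, 8820 to 11036 at P2+15 and 7808 to 10408 at P2+16. Jag2 had 5818 to 8235 at P2+14, 4344 to 4754 at P2+15 and 4521 to 5576 at P2+16, so the P2+14 dishes were the lowest in Jag1 and the highest in Jag2. The per-kb ratio of Jag1 to Jag2 was 0.664 to 1.28 in the P2+14 dishes and 1.77 to 2.98 in the other 8, and control 3 was the dish with more Jag2 than Jag1. Only 7.60% of the genes tested had a larger SD between cultures than Jag1, at 0.41 on the log2 scale. Krt5, a basal keratin, was also higher in the P2+14 dishes, at 308751 to 340094 normalized counts against 229016 to 279645 in the others. The basal markers Krt14 (226941 to 270359 against 210725 to 274982) and Trp63 (7810 to 11436 against 6443 to 9974) overlapped. So did the secretory marker Cyp2f2 (26191 to 78597 against 34975 to 61180). The basal markers Ngfr, Pdpn, Itga6 and Krt15 were not compared by passage. The part of these markers in the Jagged levels was not tested.

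**Figure D4:**
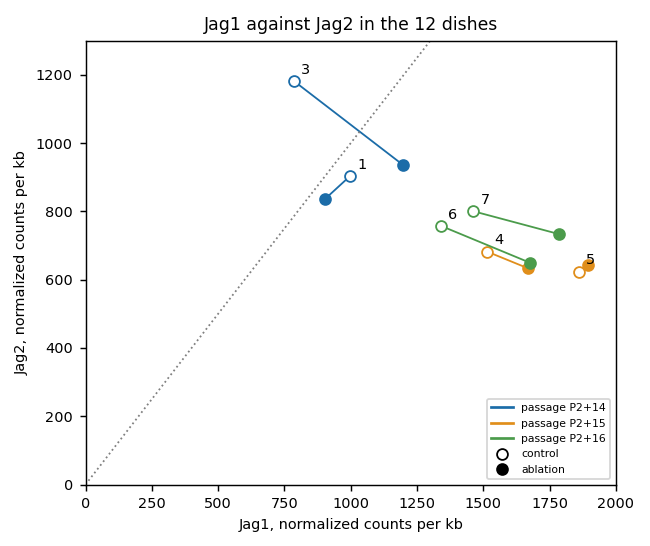
Normalized counts per kb of Jag1 against Jag2 in the 12 dishes, with colors for passages and open and filled points for control and ablation; the dotted line marks equal levels. The P2+14 dishes lie apart, with ratios of 0.664 to 1.28 against 1.77 to 2.98 in the others.

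Over the 12 libraries, which are 6 cultures measured in pairs, log2 levels of Jag1 and Jag2 correlated with r = -0.89, the strongest of the 45 pairs of these genes. Jag1 also ran against Notch1, with r = -0.83, and Jag2 ran with Nrarp at r = 0.78 and with Lfng at r = 0.74. The points share libraries, cultures and, by the labels, start days within a passage, and these values are descriptions. Among all genes tested, the one most like Jag1 in its log2 level was Ndrg1, with r = 0.97. Paox was most like Jag2 with r = 0.95, Gpm6b most like Hey1 with r = 0.93, and Zfp54 most like Hes1 with r = 0.82.

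Culture day differed among the pairs, with days 14, 14 and 15 in pairs 1, 4 and 5 and days 18, 19 and 20 in pairs 6, 7 and 3. None of the 10 genes passed the adjusted threshold between late and early cultures in limma on the 6 culture means with the library set as a covariate, and 0.00725% of all genes did. Unadjusted p-values were under 0.05 for 2 of 10, beside 6.49% of all genes. Cultures of a passage share a start day by their labels, so the 6 means may not be independent. Dll1 had means of 1478 to 1984 in late and 1908 to 2192 normalized counts in early cultures, a log2 difference of -0.32 with a 95% interval of -0.52 to -0.11 and an adjusted p of 0.762. Nrarp had a log2 difference of 0.26, with means of 1976 to 2731 in late and 1809 to 2389 in early cultures, and 0.15 without the covariate. Jag2 had a log2 difference of 0.33 with an SE of 0.145, which was 0.16 without culture 3, 0.21 without culture 5, 0.50 without culture 4 and 0.22 without the covariate. The ranges overlapped in all 3 genes.

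**Figure D5:**
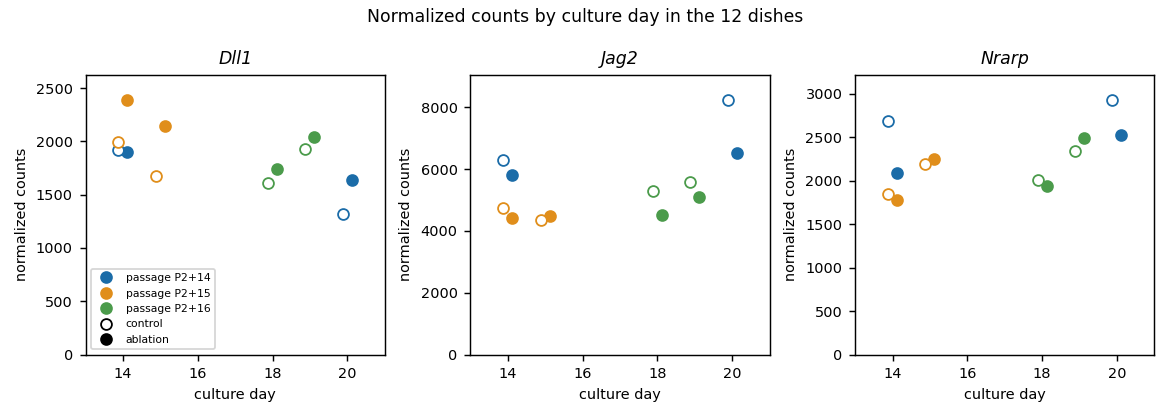
Normalized counts of Dll1, Jag2 and Nrarp against the day of culture in the 12 dishes, with open points for control and filled points for ablation and colors for passages; points of a day are set slightly apart. Late and early cultures overlap in each gene.

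The other genes of the pathway, 64 on lists of receptors, ligands, processing enzymes, nuclear partners and targets, included 52 that were tested, of which 22 were higher and 30 lower after ablation. Their median log2 fold change was -0.013. None of the 52 passed the adjusted threshold in the model with the library set, and 2 did with the pair as a block, beside 1.09% of all genes. Neurl3, whose family of E3 ligases includes regulators of ligand endocytosis, rose from 126 ± 24.2 to 189 ± 45.7 normalized counts (SD, n = 6), higher in 6 of 6 pairs. Its log2 fold change was 0.57, with an adjusted p of 0.0120 in the paired limma model and 0.486 with the library set. Maml3, a Mastermind coactivator, fell from 427 ± 44.3 to 309 ± 59.0 normalized counts (SD, n = 6) and was lower in 6 of 6 pairs. Its log2 fold change was -0.48, with an adjusted p of 0.0245 in the paired limma model and 0.346 with the library set.

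Both calls rested on the setting of the paired model. Without pair 4 the adjusted p of the paired limma model was 0.0690 for Neurl3 and 0.0807 for Maml3, and without the trended, robust moderation (plain eBayes) it was 0.120 and 0.159. Maml3 also missed the threshold without pair 3, 6 or 7, with adjusted p-values of 0.0527, 0.0503 and 0.0566 in limma. Of the other Mastermind coactivators, Maml2 had a fitted log2 difference of -0.21, with all 6 pairs lower. That of Maml1 was -0.085, with 5 of 6 lower, and neither passed the test. The list of 7 nuclear partners had 4 genes higher and 3 lower, with a median of 0.023, and the 3 lower were the Mastermind genes. Snw1 (0.073) and Ep300 (0.023) were higher in 5 of 6 pairs and Kat2b (0.032) in 3 of 6. Rbpj, the DNA-binding partner, had means of 1046 normalized counts in the control and 1083 after ablation, which is 0.049 on the log2 scale. All 9 genes of receptor cleavage were tested and none passed. Adam17, a protease of that step, had a log2 difference of -0.080 with all 6 pairs lower.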

How the data were processed

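Reads were aligned and counted by the authors in nf-core/rnaseq on GRCm38.p6 with GENCODE genes. The deposited signal values are normalized counts, that is read counts over the size factor DESeq2 gave each library. The authors' own comparison stands beside them in the deposited table, as log2 fold changes, scores (standard errors and Wald statistics) and p-values, which were not used. The gene lengths the authors deposited, another column of the table, gave levels per kb.

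A gene needed 10 normalized counts in 6 or more libraries to be tested (13792 of 55401 did), on log2 values with a pseudocount of 1, by limma 3.58.1 in R 4.3.3 with trended, robust moderation and Benjamini-Hochberg adjustment. Condition and library set were the terms, and the pair as a block was the alternative. Fold changes are on this scale, which understates those of low genes. The 10 genes and the lists were chosen with earlier results of these data known. Named genes are these 10, the list genes that passed and the genes most like them by Pearson correlation; other list genes were named after their values were seen. Deviations of same-numbered dishes correlated with r from 0.21 to 0.62 over genes, above 0.1 in each pair, and their labels share passage, day and date. Values of all 12 libraries were whole multiples of a step (100% within 0.05). The steps of ablation 3 (0.9991), ablation 4 (0.9896) and control 4 (1.007) were too near 1 for the rule used, and these 3 libraries were not recovered. Reads of the remaining 9 went into edgeR 4.0.16 and DESeq2 1.42.0, which thus lack pair 4 and the ablation dish of pair 3. Overlapping genes on the strand opposite or same as these 10 had at most 31.0 normalized counts in any dish. This leaves out A930024N18Rik, opposite Dll1, for which no value was at hand. The tests were tried on simulated data.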

Additional observations from a re-analysis of the deposited data

How the results depend on the processing

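Over all genes, the model with the library set called 0 genes (1083 at an unadjusted p under 0.05), and edgeR on recovered reads of 9 libraries called 0 as well. The replicate block, that is the pairing of same-numbered dishes, raised this to 150, and the count was 168 with quantile normalization and the block, 356 with all genes of any count and the block, 3 with all genes of any count, 11 by DESeq2, and 16 and 109 with the block in library set 1 and set 2 alone. With plain eBayes and the block it was 0. Leaving out a pair gave 0 without the block, and with it 176, 90, 8, 77, 106 and 140 for pairs 1, 3, 4, 5, 6 and 7. Of the pathway lists, 2 genes were called with the block, also with quantile normalization or any count, 3 in set 2 alone, and 0 to 2 without a pair. Of the 10 genes, 1 (Notch1) was called in set 2 alone and 0 to 1 without a pair. The block with plain eBayes or quantile normalization, or with any count, was chosen after seeing the data. The test between library sets called 1 gene, 0 without the block and 0 to 7 without a pair, and that of culture day 1 gene, 0 without the covariate, 0 in control dishes alone and 0 to 3 without a culture. The cause of these changes was not tested. Hes3, Hes5, Hey2 and Heyl were too low for a test at this depth.

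Signs turned in 9 of 288 values for ablation, 9 of 80 for the library sets and 11 of 90 for culture day. After ablation, the log2 fold change of Notch2 was 0.027 by edgeR and 0.031 by DESeq2, both on 9 libraries that lack pair 4. In limma it was -0.078 to 0.033 without a pair, with 0.033 without pair 4. That of Notch3 was -0.010 to 0.051 without a pair (-0.0035 without pair 1) and -0.076 in set 2 alone with the block. Between library sets, without a pair, the difference was -0.18 to 0.083 for Notch2, -0.065 to 0.31 for Jag1, -0.12 to 0.072 for Jag2, -0.18 to 0.0046 for Dll1, -0.13 to 0.097 for Lfng and -0.14 to 0.044 for Hey1. By culture day, without a culture, it was -0.0070 to 0.16 for Notch1, -0.14 to 0.20 for Notch2 (-0.16 in control dishes alone), -0.28 to 0.16 for Notch3, -0.049 to 0.34 for Lfng, -0.030 to 0.029 for Hes1 and -0.054 to 0.31 for Hey1.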
